A study of Mus musculus with 4 samples.

Results

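The genes described here are 10 genes of the pathway from HMGB1 through the Toll-like receptors (TLRs) to NF-kB and the NLRP3 inflammasome: Hmgb1, Tlr2, Tlr4, Myd88, Nfkb1, Rela, Nfkbia, Nlrp3, Casp1 and Pycard. They were found by their symbols in a table of 29300 genes, in which each of the 10 has 1 row. Counts came from the hippocampus of male C57BL/6 mice aged 7 to 8 months, with 2 mice per group, all taken on day 1 after the procedure. Control mice (labelled sham) received isoflurane anesthesia and tramadol analgesia but no operation. Surgery mice (the PND model, for perioperative neurocognitive disorder) received the same anesthesia and analgesia and an open tibial fracture with intramedullary nailing. All mice were wild type. Every comparison below is surgery against control, so it is about the fracture and its fixation on top of the drugs that both groups share.

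HMGB1 is a chromatin protein of the cell nucleus that binds DNA. When it leaves damaged or activated cells it acts as a danger signal, which TLR2, TLR4 and the receptor RAGE can sense. MyD88 passes the signal of most TLRs to kinases that release NF-kB, a dimer such as p50 (from Nfkb1) with p65 (Rela), from its inhibitor IkB-alpha (Nfkbia). NF-kB raises transcription of Nlrp3 and of precursor cytokines, and the NLRP3 sensor, the adaptor ASC (Pycard) and caspase-1 (Casp1) then assemble into the inflammasome that matures IL-1beta and IL-18. In the brain, microglia carry much of this machinery. Release of HMGB1 from the nucleus, movement of p65 into it and cleavage of caspase-1 are protein events that RNA counts do not measure.

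The libraries held 15763432 to 18573386 counts, and 24238 to 25324 genes were detected in each. After a filter on low counts 17144 genes were tested, all 10 of these genes among them. Replicate libraries differed enough for each to be counted as a sample of its own. Markers of hippocampal principal neurons were present in every library at a summed level of 983 to 1154 CPM (counts per 1e+06 of the scaled library), but markers of choroid plexus, a tissue beside the hippocampus, ranged from 131 CPM in control mouse 1 to 5462 CPM in control mouse 2. Over all genes tested the log2 fold change followed the GC content of the transcripts. Its median was 0.60 in the eighth of genes with the lowest GC content and -0.34 in the eighth with the highest. Fold changes of the 10 genes, and of every other named gene said to have risen or fallen, are therefore also given after removal of each library's trend with transcript length and GC content, called the corrected value, except for copies of Hmgb1 near 0 in control mice.

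Of the 10 genes, 1 rose after surgery by edgeR's quasi-likelihood test (adjusted p under 0.05) and 0 fell, while 13.1% of all genes tested rose and 12.8% fell. Without adjustment, 1 gene was higher and 1 lower at p under 0.05, where 6748 of the 17144 genes tested lay. DESeq2 called 1 higher and 0 lower, against 1703 and 2084 of all genes. It gave no adjusted p to Tlr2, Tlr4, Nlrp3, Casp1 and Pycard, so it could not call them. Without surgery mouse 1, Tlr4 was called higher as well, and without control mouse 1, Nfkbia was called lower. Each of these fits leaves 1 mouse in a group, which is then assumed to vary like the mice of the other group. Of all genes 2250 rose and 2199 fell, against 1201 and 1207 without control mouse 2, and 1347 fell without surgery mouse 2. Both surgery mice lay above both control mice for 4 of the genes (Hmgb1, Tlr4, Casp1 and Pycard), against 33.2% of all genes tested. They lay below both control mice for 3 (Myd88, Nfkb1 and Rela), against 32.2% of all genes, and the groups overlapped for Tlr2, Nfkbia and Nlrp3. The median log2 fold change of the 10 genes was -0.09, with 0.01 over all genes. With the correction, 0.665% of all genes tested rose and 1.35% fell, and of the 10 genes Hmgb1 rose and 0 fell, the same counts as at an unadjusted p under 0.05. The plot of all 10 genes in each mouse shows how far apart the genes are in level and how close most of the pairs of mice are.

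**Figure D1:**
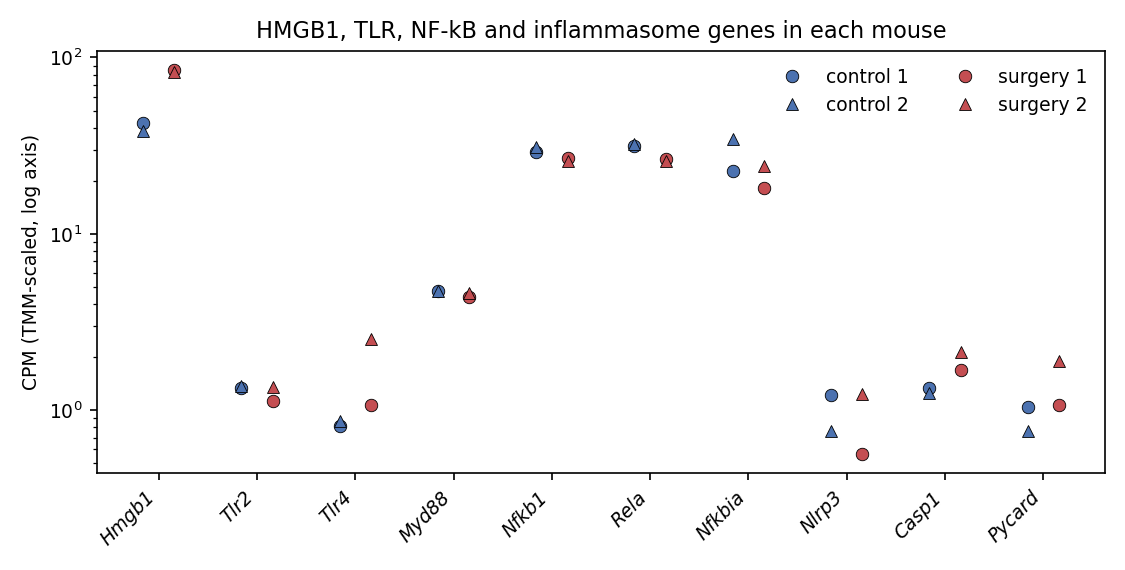
Level of each gene in each mouse in CPM (TMM-scaled, log axis), with control mice in blue and surgery mice in red, and circles and triangles for replicates 1 and 2. Hmgb1 stands at 42.3 and 38.2 CPM in control mice and at 85.0 and 82.8 CPM in surgery mice, and Tlr4 is high in surgery mouse 2 alone.

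Levels per kilobase of exon differed widely between genes. The length used is that of all annotated exons of a gene joined, such as 12.061 kb for Nfkb1 and 3.8 kb for Pycard. A gene whose expressed transcripts are shorter than that is placed too low, so the order between genes is approximate. In control mice the order from high to low was Nfkbia, Rela, Hmgb1, Nfkb1, Myd88, Casp1, Tlr2, Nlrp3, Pycard and Tlr4. Nfkbia was at 14.1 and 21.3 CPM per kb, Hmgb1 at 8.42 and 7.60, and Tlr4 at 0.146 and 0.157. Neighbours in this order did not overlap between mice, except Nlrp3 and Pycard. In surgery mice Hmgb1 was the first of the 10, at 16.9 and 16.5 CPM per kb, ahead of Nfkbia at 11.3 and 15.0. Nfkb1, Myd88 and Casp1 kept their places in the middle, and the 4 lowest genes, Tlr2, Pycard, Tlr4 and Nlrp3, overlapped from each neighbour to the next. The receptors, the inflammasome sensor, its adaptor and its caspase were thus measured from few reads, at most 43 in any library, and the inhibitor, both NF-kB subunits and Hmgb1 from 291 to 1400.

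Hmgb1, the ligand of the pathway, was the gene that rose. Hmgb1 (ENSMUSG00000066551, mm10 chr5:149046702-149184489, minus strand, protein coding, 8 exon blocks) had 730 and 699 counts in control mice and 1357 and 1400 in surgery mice. Its level was 40.3 ± 2.92 CPM (SD, n = 2) in control mice and 83.9 ± 1.51 CPM (SD, n = 2) in surgery mice. The groups were far apart compared with the distance between replicates. The fold change was 2.08, or 1.06 on the log2 scale (SE 0.08, 95% interval 0.87 to 1.25, edgeR adjusted p = 0.00408). The corrected log2 fold change was 0.77, and the call held (edgeR adjusted p = 0.0297). The GC content of its transcripts was 44.7%, in an eighth of genes where the median log2 fold change was 0.31 and 30.2% of genes rose. Leaving out each mouse in turn gave log2 fold changes of 0.98 to 1.13. In bulk tissue, fewer cells of a type and less RNA per cell cannot be told apart, here and for every gene that follows.

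Hmgb1 has many processed pseudogenes, which are copies of its mRNA inserted elsewhere in the genome, and reads from such sequence can be assigned to the gene or to a copy. Of the 5032 windows of 75 bases in the Hmgb1 transcripts, 1033 (20.5%) also occur in the transcripts of 86 other genes. The counts of Hmgb1 and of its copies are therefore uncertain. How close a copy can be is shown by the first 150 bases of the Hmgb1 coding sequence and of Hmgb1-ps2 (mm10 chrX:146175942-146176577, plus strand), read from the GENCODE transcripts of the same genome. Capitals mark the bases that differ, which are A21G and G146A with the base of Hmgb1 first and positions counted from the first base of the start codon.
Hmgb1: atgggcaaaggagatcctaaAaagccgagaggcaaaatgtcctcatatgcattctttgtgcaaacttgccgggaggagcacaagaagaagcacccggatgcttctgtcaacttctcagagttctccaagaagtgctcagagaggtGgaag
Hmgb1-ps2: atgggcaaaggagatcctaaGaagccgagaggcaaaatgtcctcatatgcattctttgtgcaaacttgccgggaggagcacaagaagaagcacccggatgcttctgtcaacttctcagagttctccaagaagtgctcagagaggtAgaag

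Over 633 aligned bases the sequence of Hmgb1-ps2 differed from the Hmgb1 coding sequence at 3, an identity of 99.5%. The alignment also held 1 gap, and gaps are not counted as differences here or for the copies below. Of its windows of 75 bases, 417 of 562 also occur in Hmgb1. A read is longer than such a window, so this share is not the share of reads that cannot be told apart. Gm15387 had 1 difference over 645 bases. Gm5518 differed at 5 of 645 and Gm8319 at 5 of 638.

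The counts on the copies went up in surgery mice along with those of the gene. Among the genes counted, 38 pseudogenes share at least 1 window with Hmgb1, and together they had 309 and 268 counts in control mice and 565 and 666 in surgery mice. Their share of the sum of gene and copies was 29.7% and 27.7% in control mice and 29.4% and 32.2% in surgery mice, highest in surgery mouse 2. Of the 38, 8 passed the filter and 6 rose, while 0 fell, against 13.1% and 12.8% of all genes. Several of the 6 were near 0 in control mice and passed the filter through surgery mice, where they are high, so these counts are partly set by the filter. Without adjustment 6 were higher and 0 lower at p under 0.05, and DESeq2 called 2 higher and 0 lower. With the correction, under which 0.665% of all genes rose, Hmgb1-ps2 and Gm8319 kept their calls. Both had passed the filter only through surgery mice, so the kept calls are no separate support for a rise. Gm15387, Gm13577, Gm5527 and AC154335.2 lost their calls, with edgeR adjusted p from 0.0538 for Gm13577 to 0.109 for AC154335.2. The log2 fold changes of Gm5527 (2.19, corrected 2.01) and AC154335.2 (1.62, corrected 1.47) moved little.

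Single copies had a wide range of values. Hmgb1-ps2 had 7 and 10 counts in control mice and 91 and 95 in surgery mice, a log2 fold change of 3.55 (SE 0.31, edgeR adjusted p = 0.00428, corrected value 3.35 with adjusted p = 0.0297). Hmgb1-ps2 passed the filter only through surgery mice, where it is high, so these p-values are no separate support for its rise. Gm8319 went from 0 and 1 counts to 30 and 32, a ratio of 69.3 with a counting interval of 11.98 to 2780. Gm15387 went from 81 and 49 counts to 161 and 178, a log2 fold change of 1.49 (SE 0.26, edgeR adjusted p = 0.0103, corrected value 1.30 with adjusted p = 0.0583). Gm5518 had 142 and 131 counts in control mice and 123 and 146 in surgery mice, with overlapping groups and a log2 fold change of 0.09 (95% interval -0.33 to 0.51). Gm21596, which shares 889 windows with Hmgb1 and more than any other copy, had at most 3 counts in a library.

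The other copies whose symbols begin with Hmgb1 had at most 9 counts in any library. With the counts of all rows so named added to the gene, the log2 fold change of Hmgb1 was 1.14, and with all 38 copies added it was 1.10 (edgeR adjusted p = 0.00378 and 0.00381). The rise was present with the copies counted apart or together. The plot of Hmgb1 and its tested copies gives the reads in each mouse.

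**Figure D2:**
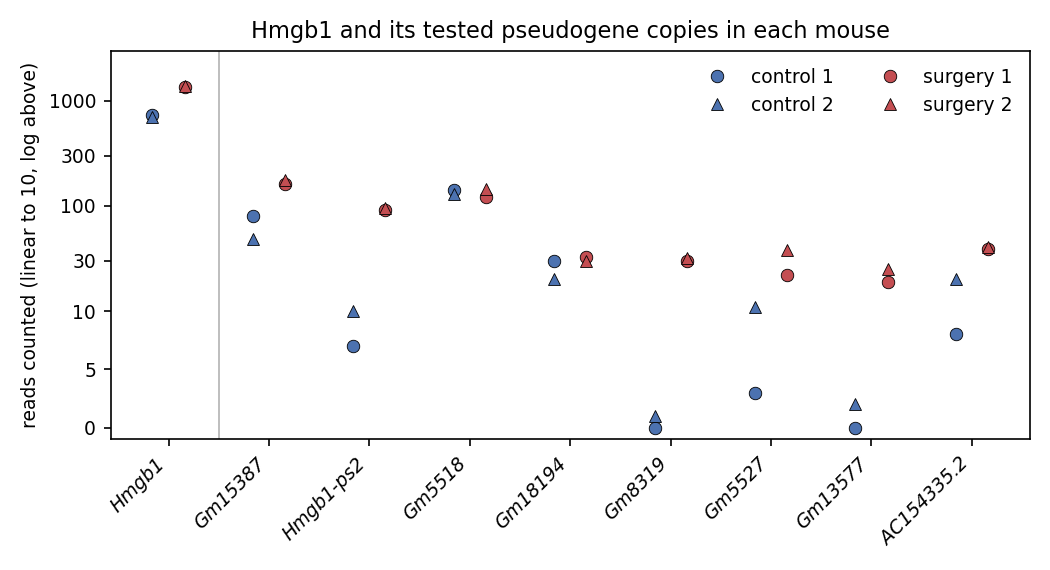
Reads counted on Hmgb1 and on the 8 pseudogene copies that passed the filter, in each mouse (axis linear to 10 and logarithmic above), with control mice in blue and surgery mice in red. Hmgb1-ps2 and Gm8319 are well apart between the groups, whereas Gm5518, with 142, 131, 123 and 146 counts, overlaps.

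The receptors and their adaptor did not pass the test. Tlr2 (mm10 chr3:83836272-83841767, minus strand), a receptor for bacterial lipoproteins and HMGB1, had 23 and 25 counts in control mice and 18 and 23 in surgery mice. The groups overlapped, and the log2 fold change was -0.11 (SE 0.33, 95% interval -0.91 to 0.68, edgeR adjusted p = 0.83, corrected value -0.17).

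Tlr4 (mm10 chr4:66827584-66930284, plus strand), the receptor for lipopolysaccharide and a receptor for HMGB1, had 14 and 16 counts in control mice, 17 in surgery mouse 1 and 43 in surgery mouse 2. Both surgery mice were above both control mice, but surgery mouse 1 by 1 read. The log2 fold change was 1.10, close to that of Hmgb1, with a far wider error (SE 0.50, 95% interval -0.11 to 2.31, edgeR adjusted p = 0.157, corrected value 0.53). Without surgery mouse 1 it was 1.57 and passed the test (edgeR adjusted p = 0.0339), and without surgery mouse 2 it was 0.34 (edgeR adjusted p = 0.724). Surgery mouse 2 decides this value, and it was also the mouse with the highest sum of monocyte and border macrophage markers, at 22.3 CPM against 4.29 and 8.63 CPM in control mice and 6.83 CPM in surgery mouse 1. All 8 of these markers were detected in surgery mouse 2, 4 were tested, 0 were called by edgeR or DESeq2, and 1 was higher at an unadjusted p under 0.05. The sum of endothelial markers was also highest there, at 357 CPM against 244 to 264 CPM in the other mice. Of the 8, 2 rose, where 13.1% of all genes did (Flt1 by 0.41 and Slco1a4 by 0.87 on the log2 scale), and with the correction neither was called (0.34 with edgeR adjusted p = 0.0944 and 0.25 with 0.378). Oligodendrocyte markers were lowest in the same mouse, at 4037 CPM against 5474 to 6348 CPM, with 0 of 8 called by edgeR or DESeq2 and 0 at an unadjusted p under 0.05. The part of these cell types in the result was not tested.

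Myd88 (mm10 chr9:119335934-119341411, minus strand), the adaptor that the intracellular domains of TLR2 and TLR4 recruit, had the smallest log2 fold change of the 10. It had 82 and 87 counts in control mice and 70 and 78 in surgery mice, or 4.75 in each control mouse and 4.38 and 4.62 CPM in surgery mice. The log2 fold change was -0.08 (95% interval -0.56 to 0.41, edgeR adjusted p = 0.807), and the correction turned its sign, to 0.08. Of its exon bases, 290 overlap those of Acaa1a on the other strand, and the sources used here do not say whether counting used strand.

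None of the NF-kB subunits and their inhibitor passed the test. Nfkb1 (mm10 chr3:135584655-135691547, minus strand), which encodes p105 and its product p50, had 499 and 571 counts in control mice and 428 and 438 in surgery mice. Its log2 fold change was -0.19 (SE 0.09, 95% interval -0.42 to 0.04, edgeR adjusted p = 0.19, corrected value -0.16).

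Rela (mm10 chr19:5637483-5648130, plus strand), which encodes p65, had 541 and 588 counts in control mice and 424 and 438 in surgery mice. Its levels were 31.7 ± 0.54 CPM (SD, n = 2) and 26.2 ± 0.45 CPM (SD, n = 2), and the groups did not overlap. The log2 fold change was -0.28 (SE 0.09, 95% interval -0.49 to -0.06), which passed before the adjustment over all genes and not after it (edgeR adjusted p = 0.0651). The correction took this difference away, with a value of 0.01. Rela had the highest GC content of the 10, at 58.8%, in an eighth of genes where the median log2 fold change was -0.34 and 38.3% of genes fell.

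Nfkbia (mm10 chr12:55489410-55492647, minus strand), the inhibitor that NF-kB itself induces, had 391 and 629 counts in control mice and 291 and 408 in surgery mice. Its levels were 28.5 ± 8.27 CPM (SD, n = 2) in control mice and 21.2 ± 4.19 CPM (SD, n = 2) in surgery mice. In each group mouse 2 was the higher, and the groups overlapped. The log2 fold change was -0.43 (SE 0.22, 95% interval -0.96 to 0.11, edgeR adjusted p = 0.205, corrected value -0.27). Without control mouse 1 it was -0.70 and passed the test (edgeR adjusted p = 0.0285), and without control mouse 2 it was -0.10 (edgeR adjusted p = 0.761).

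Nfkbia, Tlr2 and Nlrp3 are known targets of NF-kB, whose dimers bind a sequence known as the kB consensus. The 250 bases before the start of each RefSeq transcript were searched on both strands (build GRCm38.p6). Of 32851 promoters, 1281 (3.90%) hold a match, and of the 10 genes 8 have an entry and 3 hold a match (Tlr2, Nfkbia and 1 of the 2 promoters of Nlrp3). The promoters of Tlr2 (chr3:83841609-83841858) and Nfkbia (chr12:55492648-55492897), both on the minus strand, are shown because these genes are a receptor at the start of the pathway and the inhibitor at its end, and neither passed the test. Capitals mark the match, which begins at position -173 in Tlr2, where overlapping matches lie on both strands, and at position -29 in Nfkbia.
Tlr2: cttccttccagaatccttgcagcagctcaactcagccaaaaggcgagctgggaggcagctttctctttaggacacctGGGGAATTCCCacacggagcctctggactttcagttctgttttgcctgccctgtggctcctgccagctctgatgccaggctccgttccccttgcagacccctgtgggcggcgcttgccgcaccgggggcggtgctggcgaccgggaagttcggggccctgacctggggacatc
Nfkbia: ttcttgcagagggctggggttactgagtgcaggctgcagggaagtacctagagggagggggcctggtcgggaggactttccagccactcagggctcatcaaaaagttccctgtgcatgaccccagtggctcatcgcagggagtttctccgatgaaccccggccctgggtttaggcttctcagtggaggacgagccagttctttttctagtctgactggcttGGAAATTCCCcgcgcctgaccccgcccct

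These letters do not show that NF-kB was bound in these mice. Hmgb1, which rose, has 2 promoters in this table and neither holds a match.

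The genes of the inflammasome were near the lower end of what these libraries measure, and none passed the test. Nlrp3 (mm10 chr11:59541568-59566956, plus strand), the sensor, had 21 and 14 counts in control mice and 9 and 21 in surgery mice. The highest counts of both groups were equal, and the log2 fold change was -0.11 (SE 0.50, 95% interval -1.31 to 1.09, edgeR adjusted p = 0.895, corrected value -0.09). Its direction rests on single mice, with 0.25 without control mouse 1 and 0.32 without surgery mouse 1. A rise and a fall of 1 on the log2 scale both lie within the interval.

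Casp1 (mm10 chr9:5298517-5307265, plus strand), the protease that cleaves the IL-1beta and IL-18 precursors, had 23 counts in each control mouse and 27 and 36 in surgery mice. Both surgery mice were above both control mice, with a log2 fold change of 0.56 (SE 0.32, 95% interval -0.20 to 1.33, edgeR adjusted p = 0.239). The corrected value was 0.04. Its GC content was 41.1%, in the eighth of genes with the lowest GC content, where 50.2% of genes rose.

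Pycard (mm10 chr7:127989708-127993867, minus strand), the adaptor that joins sensor and caspase, had 18 and 14 counts in control mice and 17 and 32 in surgery mice. In CPM these were 1.04 and 0.765 against 1.06 and 1.89, so that surgery mouse 1 was barely above control mouse 1. The log2 fold change was 0.72 (SE 0.43, 95% interval -0.31 to 1.75, edgeR adjusted p = 0.263, corrected value 0.51), and without surgery mouse 2 it was 0.24. As with Tlr4, surgery mouse 2 was the high one. Of its exon bases, 485 overlap Gm45205 on the other strand. The plot of fold changes sets all 10 genes side by side with and without the correction.

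**Figure D3:**
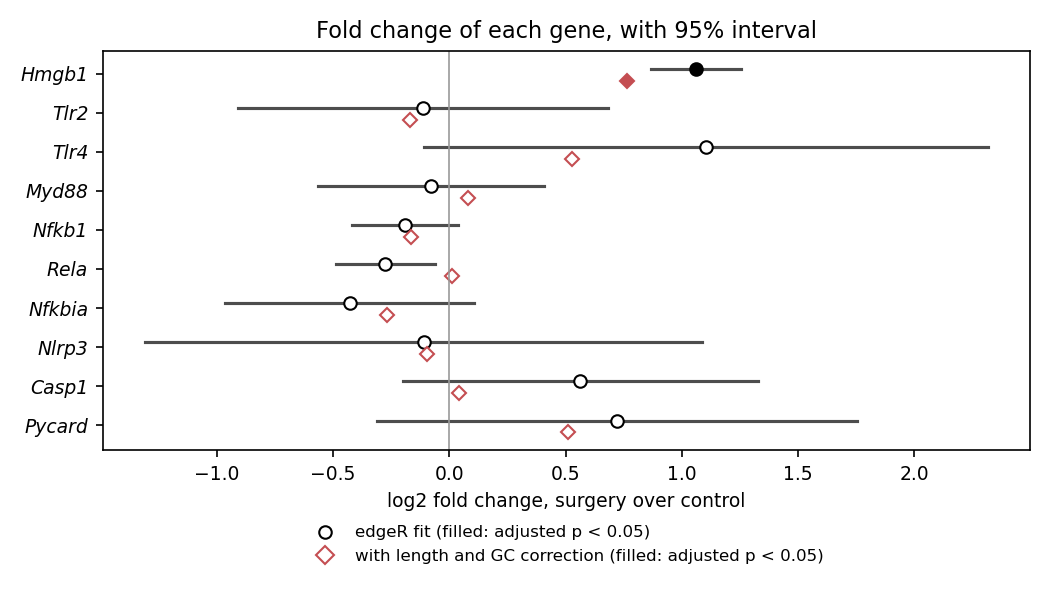
Log2 fold change of surgery over control for each gene, with its 95% interval (circles and bars), and the value corrected for transcript length and GC content (red diamonds), with filled symbols at an adjusted p under 0.05. Hmgb1 is filled in both (1.06 and 0.77), and the intervals of Tlr4 and Nlrp3 are the widest.

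Microglia, the cells in which much of this pathway is found, had a summed marker level of 382 and 364 CPM in control mice and 367 and 379 CPM in surgery mice. All 12 microglial markers were tested, and 2 of them rose and 0 fell, where 13.1% of all genes rose and 12.8% fell (P2ry12, a purinergic receptor, with a log2 fold change of 0.84, and Itgam, which encodes CD11b, with 1.17). With the correction neither was called, at 0.18 for P2ry12 (edgeR adjusted p = 0.373) and 1.13 for Itgam (edgeR adjusted p = 0.0682). DESeq2 called 2 higher and 0 lower. At an unadjusted p under 0.05 there were 3 higher and 1 lower, where 6748 of the 17144 genes tested lay. Neutrophil markers summed to 10.3 and 16.3 CPM in control mice and 2.07 and 10.7 CPM in surgery mice, and Ltf alone of 4 tested was called, lower in surgery mice (log2 fold change -1.63, edgeR adjusted p = 0.0394, corrected value -1.61 with adjusted p = 0.104). DESeq2 called 0 neutrophil markers in either direction, and at an unadjusted p under 0.05 there were 0 higher and 1 lower. The part of these cells in the levels of the 10 genes was not tested.

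Of 98 other genes of the same pathways, in 6 lists, 78 passed the filter, 6 rose (7.69%) and 3 fell (3.85%), against 13.1% and 12.8% of all genes. Without surgery mouse 1, 12 rose, without surgery mouse 2, 3 rose, and without control mouse 1, 5 fell. Both surgery mice were above both control mice for 28 of the 78 and below them for 15, against 33.2% and 32.2% of all genes. The median log2 fold change was 0.22, and 0.10 with the correction. With the correction edgeR called 0 of the 78 in either direction, against 0.665% and 1.35% of all genes. At an unadjusted p under 0.05 the correction left 7 higher and 3 lower, and the share of all genes at that level is not given here. Without the correction, 6748 of the 17144 genes tested lay at an unadjusted p under 0.05, and DESeq2 called 1703 higher and 2084 lower. The DESeq2 and unadjusted counts of each list below are to be read against these.

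In the list of the HMGB family and HMGB1 receptors, 5 of 6 genes were tested and edgeR and DESeq2 called 0, with 2 higher and 0 lower at an unadjusted p under 0.05. Hmgb2 had 50 and 69 counts in control mice and 43 and 79 in surgery mice. Hmgb3 had 131 and 152 against 168 and 194, with a log2 fold change of 0.47 (edgeR adjusted p = 0.0694, corrected value 0.26). Both encode relatives of HMGB1 that bind DNA. Ager, which encodes RAGE, had 15 and 38 counts against 16 and 14, with a log2 fold change of -0.70 (edgeR adjusted p = 0.353, corrected value -0.40).

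Among the other Toll-like receptors and co-receptors, 12 of 15 genes were tested, 1 rose and 0 fell. Tlr3, the endosomal receptor for double-stranded RNA, which signals through TRIF and not through MyD88, rose from 140 and 134 counts to 231 and 235. Its log2 fold change was 0.88 (SE 0.14, edgeR adjusted p = 0.00839), and 0.32 with the correction (edgeR adjusted p = 0.252), at a GC content of 40.6%. The co-receptors of TLR4 were not called. Cd14, which hands lipopolysaccharide to TLR4, had 40 and 47 counts in control mice, 30 in surgery mouse 1 and 104 in surgery mouse 2, and Ly96, which encodes MD-2, had 10 and 13 against 11 and 15. Cd14 was thus high in the same mouse as Tlr4. For this list DESeq2 called 1 higher and 0 lower, and at an unadjusted p under 0.05 there were 2 higher and 1 lower.

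Among the adaptors and kinases of TLR signalling, 15 of 16 were tested, 1 rose and 2 fell. DESeq2 called 0 higher and 2 lower in this list, and at an unadjusted p under 0.05 there were 3 higher and 3 lower. Tab1 and Tab2 encode binding partners of the kinase TAK1. Tab1 fell from 676 and 758 counts to 431 and 426, a log2 fold change of -0.63 (SE 0.09, edgeR adjusted p = 0.00633, corrected value -0.37 with adjusted p = 0.0863). Tab2 rose by 0.28 on the log2 scale (SE 0.07, edgeR adjusted p = 0.0382), from 1136 and 1190 counts to 1211 and 1397, and its corrected value was 0.04 (edgeR adjusted p = 0.778). Tollip, an inhibitor of TLR signalling, was at 2879 and 3331 counts in control mice and fell by 0.24 on the log2 scale to 2388 and 2458 (SE 0.07, edgeR adjusted p = 0.0429, corrected value -0.17 with adjusted p = 0.204).

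Among the other NF-kB subunits, inhibitors and kinases, all 20 were tested, 2 rose and 1 fell. Chuk, which encodes IKK-alpha, a kinase of the complex that marks IkB proteins for degradation, rose from 696 and 685 counts to 860 and 915 (log2 fold change 0.47, SE 0.08, edgeR adjusted p = 0.0091). Cyld, a deubiquitinase that restrains NF-kB, rose from 1822 and 1860 counts to 1952 and 2251 (log2 fold change 0.30, SE 0.07, edgeR adjusted p = 0.0249). Rbck1, which encodes HOIL-1 of the linear ubiquitin ligase complex, fell from 2308 and 2510 counts to 1581 and 1782 (log2 fold change -0.41, SE 0.07, edgeR adjusted p = 0.00789). The corrected values were 0.07, -0.15 and -0.12, so that the sign of Cyld turned. None of the 3 was called with the correction (edgeR adjusted p = 0.644, 0.237 and 0.362). DESeq2 called 2 higher and 1 lower in this list, and at an unadjusted p under 0.05 there were 4 higher and 4 lower.

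Among the other inflammasome sensors, effectors and substrates, 15 of 21 were tested, 2 rose and 0 fell. DESeq2 called 1 higher and 0 lower in this list, and at an unadjusted p under 0.05 there were 4 higher and 0 lower. Nek7, a kinase that binds NLRP3 and is needed for its assembly, rose from 565 and 640 counts to 809 and 845. Its log2 fold change was 0.57 (SE 0.08, edgeR adjusted p = 0.00613), and -0.07 with the correction, at a GC content of 39.9%. Gsdme, a gasdermin that forms pores when cleaved by caspase-3, rose from 270 and 224 counts to 327 and 338 (log2 fold change 0.54, SE 0.15, edgeR adjusted p = 0.0399, corrected value 0.27). Gsdmd, the gasdermin that caspase-1 cleaves, had 58 and 66 counts in control mice and 55 and 79 in surgery mice, with overlapping groups.

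The cytokines matured by the inflammasome differed in how well they were measured. Il18 had 239 and 216 counts in control mice and 268 and 309 in surgery mice, with a log2 fold change of 0.45 that did not pass the test (SE 0.14, edgeR adjusted p = 0.0549) and a corrected value of 0.02. Il1b had 8 and 10 counts in control mice, 0 in surgery mouse 1 and 14 in surgery mouse 2, and did not pass the filter. The count of 0 allows up to 0.188 CPM (3 counts of the library).

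Of 20 NF-kB target genes, 11 were tested, and edgeR called 0 in either direction, where 13.1% of all genes rose and 12.8% fell. The median log2 fold change of the 11 was 0.17, with 8 of them positive. For 2 of the 11 both surgery mice lay above both control mice, and for 2 below them, against 33.2% and 32.2% of all genes. DESeq2 called 0 higher and 1 lower, and at an unadjusted p under 0.05 there were 2 higher and 1 lower. Il6 had 0 counts in both control mice and 2 and 1 in surgery mice, and Tnf had 0 in both control mice and in surgery mouse 1 and 1 in surgery mouse 2. For both genes a count of 0 allows up to 0.174 and 0.164 CPM in control mice, so a difference of that size or smaller was not detectable at this depth.

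**Figure D4:**
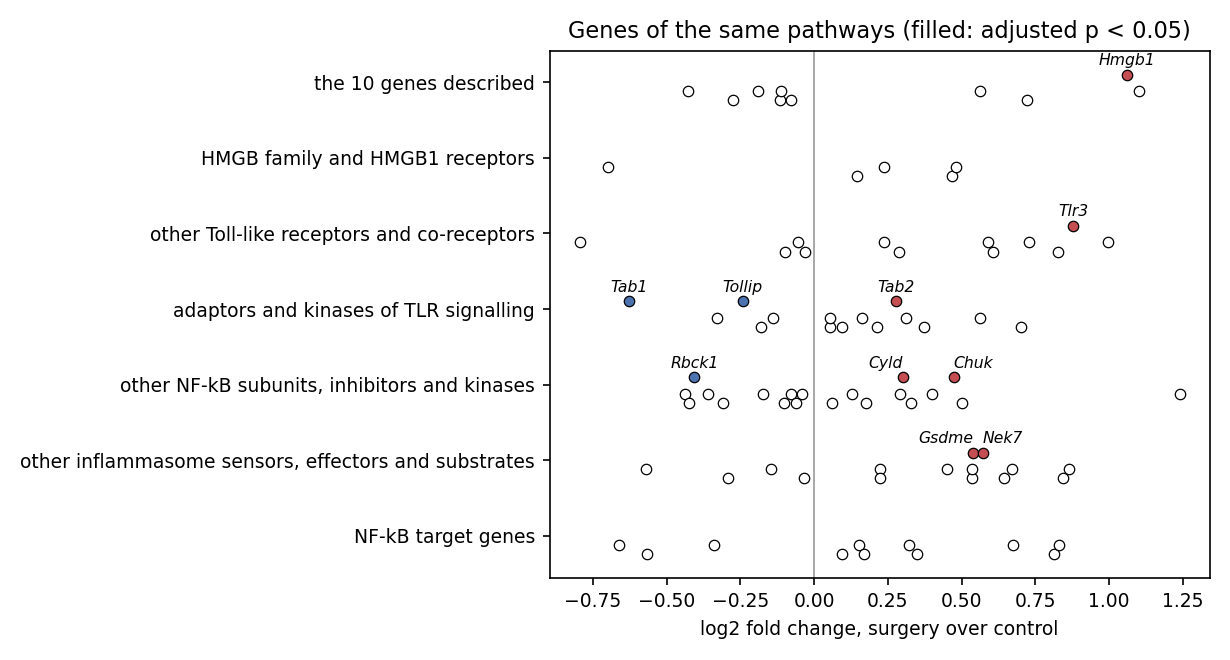
Log2 fold change of surgery over control for the 10 genes and for the tested genes of the 6 lists, 1 point per gene and 1 band per list, with vertical offsets only for legibility and filled points at an adjusted p under 0.05 (red higher, blue lower). The 6 that rose and the 3 that fell among the 78 other genes are named, and most points of each list are open.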

How the data were processed

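Total hippocampal RNA was enriched for poly(A) with oligo(dT), and both ends of the fragments were read for 150 nt. The authors mapped the reads to mm10 with HISAT and deposited raw counts of reads per gene, one column for each mouse. The submitters' processing notes list HISAT2 2.1.0, Bowtie2 2.2.3, TopHat2 and HTSeq 0.6.0 without roles, and the use of strand is not given in the sources used here. The authors also deposited their own comparison: a scaled mean signal, a fold change as a ratio, its log2, and unadjusted and adjusted p-values. None of these columns was used.

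Counts were analysed in R 4.3.3. Genes were kept by filterByExpr of edgeR 4.0.16 (minimum count 10), scaled by TMM (factors 0.982 to 1.02) and tested by the quasi-likelihood F test (glmQLFit, legacy off), with condition as the only term and Benjamini-Hochberg adjustment over 17144 genes at 0.05. The SE is the log2 fold change over the root of F. The p-values measure the spread between 2 mice a group, shared over genes, and an exact permutation test of 1 gene cannot go below p = 0.333, so none was run. Each library's trends with the length and GC content of transcripts, from GENCODE M21, were fitted with mgcv 1.9.3 (basis size 8) and entered as offsets. DESeq2 1.42.0 was an alternative, next to other scalings, no filter, the replicate number as a block, each mouse left out and Hmgb1 summed with its copies (the sum with all 38 copies was added after seeing the data). The edgeR fit was tested on simulated data with 2-fold changes placed in well counted genes. It recovered 113 of 200 of these and made 7 false calls, so it can miss changes of that size. Counting intervals (95%, exact) and limits for a count of 0 cover counting error only. Promoters are from RefSeq.

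The 10 genes and all lists were chosen with earlier results of these data known. Named are all 10 genes, every called gene of the pathway lists (at most 6 a list), Il1b, Il6, Tnf, Il18, Ager, Ly96, Cd14 and Gsdmd, and the copies of Hmgb1. Hmgb2, Hmgb3, the marker genes and the copies described singly were named after their values were seen. Gsdme was matched by its Ensembl identifier. The markers for cell types were summed as CPM. Quantitative PCR, immunoblots, ELISA and behavior were not analysed here.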

Additional observations from a re-analysis of the deposited data

How the results depend on the processing

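Hmgb1 rose under all 13 alternatives run on it, by 0.77 to 1.14 on the log2 scale, with a highest edgeR adjusted p of 0.0297. Over the 10 genes, 103 of 112 alternatives left direction and call as they were. The correction for length and GC content turned Myd88 to 0.0799 and Rela to 0.0135 (0.0800 and 0.0134 with the replicate block as well), and Nlrp3 turned to 0.25 without control mouse 1 and to 0.32 without surgery mouse 1, in a range of -0.793 to 0.3175 over the mice left out. Leaving out each mouse gave 1 to 2 of the 10 genes higher and 0 to 1 lower, with Tlr4 added without surgery mouse 1 (log2 fold change 1.57) and Nfkbia without control mouse 1 (-0.70). Across all genes the counts of 2250 higher and 2199 lower became 1315 and 1350 with no filter on low counts, 114 and 232 with the correction, 657 and 1442 with the correction and the block, and 1201 to 2025 and 1207 to 2080 with each mouse left out. For the 78 pathway genes the counts of 6 higher and 3 lower became 3 higher with no filter, 5 lower with DESeq2 size factors, 0 and 0 with the correction, 0 and 1 with the correction and the block, and 3 to 12 and 2 to 5 with each mouse left out. The cause was not tested. DESeq2 gave no adjusted p to Tlr2, Tlr4, Nlrp3, Casp1 and Pycard. Among the 103 these were counted as not called, so for them only the direction was compared.

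Mice with the same replicate number share only a number in the labels, and the deviations of control mouse 1 and surgery mouse 1 from their group means had a correlation of 0.22 over genes. With the replicate block, 2655 of all genes rose and 2626 fell, 10 of the pathway genes rose and 5 fell, and 1 of the 10 genes fell, Nfkbia (log2 fold change -0.42, edgeR adjusted p = 0.0258), which was not called with the block and the correction together (-0.26, edgeR adjusted p = 0.141). Tlr2, Tlr4, Nlrp3, Casp1 and Pycard had 9 to 43 counts a library, and their lack of a call does not show that they did not change.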
